A study of Mus musculus with 4 samples.

Results

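The unfolded protein response of the endoplasmic reticulum (ER) was examined in mouse liver through 34 genes, of 50584 gene symbols counted, given as a fixed list of symbols and read from the count tables by name. All 34 were found and all 34 passed the filter on low counts, which left 15647 genes tested. Poly(A) RNA came from the livers of wild-type male mice, 14 weeks old and fed chow, of the inbred strains DBA/2J and C57BL/6J, with 2 libraries per strain. Each library is taken as 1 animal, since the series' design counts 2 mice per strain. No drug, diet or stressor was applied, so the comparison is of untreated liver between strains. Where both C57BL/6J values are named below, they are in the order replicate 1, then replicate 2, and the same holds for DBA/2J.

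Secretory cells fold and export large amounts of protein, and hepatocytes make most plasma proteins. When unfolded protein builds up in the ER, the membrane sensors IRE1 (gene Ern1), PERK (Eif2ak3) and ATF6 (Atf6) are released from the chaperone BiP (Hspa5). IRE1 splices the mRNA of Xbp1, and ATF6 is cut by Golgi proteases; the resulting factors raise chaperones and the machinery of ER-associated degradation, which returns misfolded proteins to the cytosol. PERK phosphorylates eIF2 and thereby favours translation of ATF4, which raises amino acid synthesis genes and Ddit3 (CHOP). Gene counts report mRNA levels; they do not show Xbp1 splicing, ATF6 cleavage or eIF2 phosphorylation.

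Library totals lay between 48096706 and 52520737 gene-assigned counts. Levels of single genes are given as CPM, counts scaled to the TMM-adjusted library size. Sums over a list, also written CPM, are scaled to the unadjusted library total. The 10 hepatocyte markers checked summed to between 94646 and 104413 CPM, and 0 of 10 were called between strains by edgeR (1 at an unadjusted p below 0.05, 2 by DESeq2). Of 13 pancreatic acinar markers, 11 had at most 2 counts in every library; Cela1 and Cela2a, the others, were called in opposite directions. The plasma cell list summed to between 220.4 and 273 CPM, nearly all of it Sdc1, which hepatocytes also express. C57BL/6J replicate 1 had the highest summed level of acute phase genes (a summed 27149 CPM, with 14960 CPM in its strain partner and 13009 to 14612 CPM in DBA/2J) and of neutrophil markers (6.20 CPM, with 0.352 to 0.748 CPM elsewhere). The sum hides wider gaps of single acute phase genes. Saa1 had 1968 CPM in C57BL/6J replicate 1, 138 CPM in replicate 2, and 99.3 and 35.9 CPM in DBA/2J. Saa2 had 1365 and 36.0 CPM in C57BL/6J and 24.6 and 6.83 CPM in DBA/2J. Acute phase genes were called lower in DBA/2J in 3 of 14 cases and higher in 1. Single markers of other liver cells also differed. Marco (Kupffer cells, log2 difference -2.97 ± 0.58), Lyve1 (sinusoidal endothelium, -1.16 ± 0.20) and Spp1 (cholangiocytes, -1.86 ± 0.21) were called lower in DBA/2J. Reln (stellate cells, 2.46-fold) and Stab2 (endothelium, 0.40 ± 0.10) were called higher. Over the whole lists, 4 of 8 Kupffer, 2 of 7 endothelial and 4 of 6 cholangiocyte markers were below zero (medians -0.03, 0.08 and -0.49). Of the 8 stellate markers 0 were below zero (median 0.63), and the list summed to 248 and 319 CPM in DBA/2J and 197 and 138 CPM in C57BL/6J. The sums were 131 to 167 CPM for Kupffer, 138 to 201 CPM for endothelial and 24.2 to 74.4 CPM for cholangiocyte markers; the part of these cells in the ER gene values was not tested.

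Letter matches to known stress elements in these promoters are shown first, because the factors of the response bind such elements. Binding at these matches was not tested. The groups used below are by protein role, not by element. Windows from 250 bases before to 50 after a gene start were taken from RefSeq (GRCm38.p6, the C57BL/6J reference; DBA/2J alleles were not read here), and 30 of 34 genes had one; Hyou1, Manf, Atf6 and Derl1 had none. Both strands were searched for the ER stress element ERSE (CCAAT, then 9 bases, then CCACG), bound by ATF6 with NF-Y; for ERSE-II (ATTGG, then 1 base, then CCACG); for the UPR element core TGACGTG; and for the C/EBP-ATF response element CARE (TGATGNAA), bound by ATF4. The matches in member promoters did not overlap one another (0 overlapping matches). The ERSE matches, written in the direction of the motif with the fixed bases in capitals, were as follows.
Hspa5: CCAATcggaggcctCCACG
Creld2: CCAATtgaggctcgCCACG
Syvn1: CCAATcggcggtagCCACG
Derl3: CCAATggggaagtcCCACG
Ero1lb: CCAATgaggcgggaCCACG
Hsp90b1, distal: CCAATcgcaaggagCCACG
Hsp90b1, proximal: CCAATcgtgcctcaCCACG
Dnajc3: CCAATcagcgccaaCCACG
Calr: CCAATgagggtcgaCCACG
Canx: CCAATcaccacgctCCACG
Pdia6: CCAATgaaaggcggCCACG

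An ERSE was present in 10 of 30 member windows (33.3%), against 39 of 32851 windows of all genes (0.119%). ERSE-II was found in Dnajb11 (ATTGGcCCACG) and Herpud1 (ATTGGgCCACG), 2 of 30 against 12 of 32851 (0.0365%). The ERSE was first defined in promoters of these chaperones, so its share among them is no independent result. CARE matches stood in 4 of the 7 targets of ATF4 and CHOP (Asns TGATGaAA, Atf3 and Chac1 TGATGcAA, Trib3 TGATGtAA) and in Herpud1 (TGATGcAA), that is in 16.7% of member windows against 3.97% of all windows. Hspa5 alone among the members held TGACGTG, which 2.01% of all windows hold. The role groups differed in which element they held: luminal chaperones, lectin chaperones, disulphide enzymes and degradation genes held ERSE or ERSE-II in 12 of 19 windows, whereas 0 of 11 windows of sensors and of ATF4 targets held either. No match says only that these letters are not in the window.

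The 250 bases before the start are printed for 5 genes called lower in DBA/2J, 1 or more from the luminal chaperones, the degradation genes and the ATF4 targets, with matched bases in capitals. On the forward strand these are Hspa5 (chr2:34771840-34772089), Creld2 (chr15:88819396-88819645, ERSE on the opposite strand), Syvn1 (chr19:6046326-6046575) and Herpud1 (chr8:94386179-94386428); Asns is on the reverse strand (chr6:7693210-7693459).
Hspa5: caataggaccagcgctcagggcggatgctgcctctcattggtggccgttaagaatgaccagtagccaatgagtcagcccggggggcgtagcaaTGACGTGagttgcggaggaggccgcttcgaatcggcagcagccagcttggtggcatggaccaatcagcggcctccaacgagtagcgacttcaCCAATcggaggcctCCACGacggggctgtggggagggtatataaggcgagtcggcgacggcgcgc
Creld2: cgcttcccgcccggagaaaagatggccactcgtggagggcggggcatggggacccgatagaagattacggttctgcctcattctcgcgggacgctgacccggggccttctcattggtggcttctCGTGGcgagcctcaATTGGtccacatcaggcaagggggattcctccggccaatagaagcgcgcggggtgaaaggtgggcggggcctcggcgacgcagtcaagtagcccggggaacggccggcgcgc
Syvn1: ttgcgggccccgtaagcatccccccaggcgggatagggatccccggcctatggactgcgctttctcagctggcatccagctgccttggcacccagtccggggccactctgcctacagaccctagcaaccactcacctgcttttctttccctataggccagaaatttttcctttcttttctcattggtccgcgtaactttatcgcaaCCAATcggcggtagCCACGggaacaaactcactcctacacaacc
Herpud1: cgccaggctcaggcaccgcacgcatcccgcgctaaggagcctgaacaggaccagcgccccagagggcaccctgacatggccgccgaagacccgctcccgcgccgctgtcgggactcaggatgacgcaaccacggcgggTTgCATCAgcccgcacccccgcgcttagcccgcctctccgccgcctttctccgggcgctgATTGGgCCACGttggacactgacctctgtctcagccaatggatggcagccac
Asns: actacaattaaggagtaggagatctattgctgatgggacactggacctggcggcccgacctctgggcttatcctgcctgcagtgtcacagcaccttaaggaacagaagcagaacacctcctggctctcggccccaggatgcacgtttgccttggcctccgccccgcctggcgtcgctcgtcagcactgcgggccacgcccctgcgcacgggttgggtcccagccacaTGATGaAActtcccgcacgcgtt

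**Figure D1:**
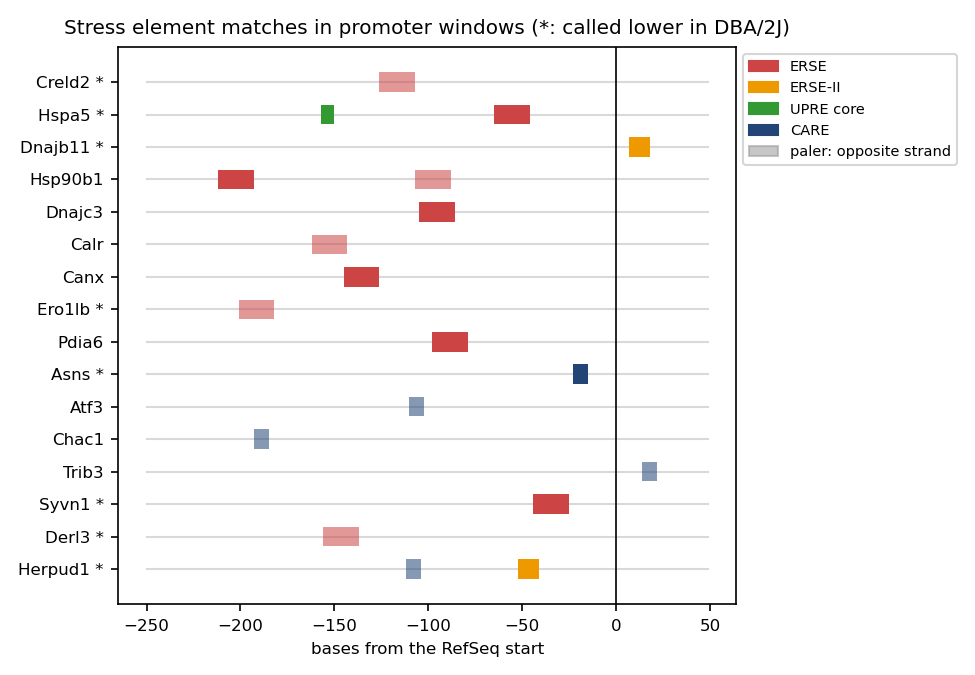
Positions of ERSE, ERSE-II, UPR element core and CARE matches (coloured blocks, paler on the opposite strand) in bases from the RefSeq start, for the 16 members with a match; an asterisk marks genes called lower in DBA/2J. ERSE and ERSE-II blocks belong to chaperone, disulphide and degradation genes, and CARE blocks to Asns, Atf3, Chac1, Trib3 and Herpud1.

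DBA/2J liver held less mRNA of many ER chaperone and degradation genes than C57BL/6J liver. Of the 34 genes, 13 were called lower in DBA/2J, where 8.87% of all tested genes were, and 0 higher, where 9.29% were (edgeR quasi-likelihood test, Benjamini-Hochberg adjusted p below 0.05). The median log2 difference, DBA/2J over C57BL/6J, was -0.40 over the members and 0.01 over all tested genes. Both DBA/2J libraries lay below both C57BL/6J libraries in 27 of 34 genes, against 31.2% of tested genes, and above them in 5, against 32.5%; Chac1 and Sesn2 overlapped. Together the members took 0.843% and 0.899% of counts in DBA/2J and 1.08% and 1.13% in C57BL/6J. At an unadjusted p below 0.05, 22 members were lower and 2 higher (17.6% and 17.8% of all tested genes). DESeq2 called 18 lower and 1 higher (9.48% and 9.38% of its tested genes). In bulk tissue, fewer cells of a type and less RNA per cell cannot be told apart.

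**Figure D2:**
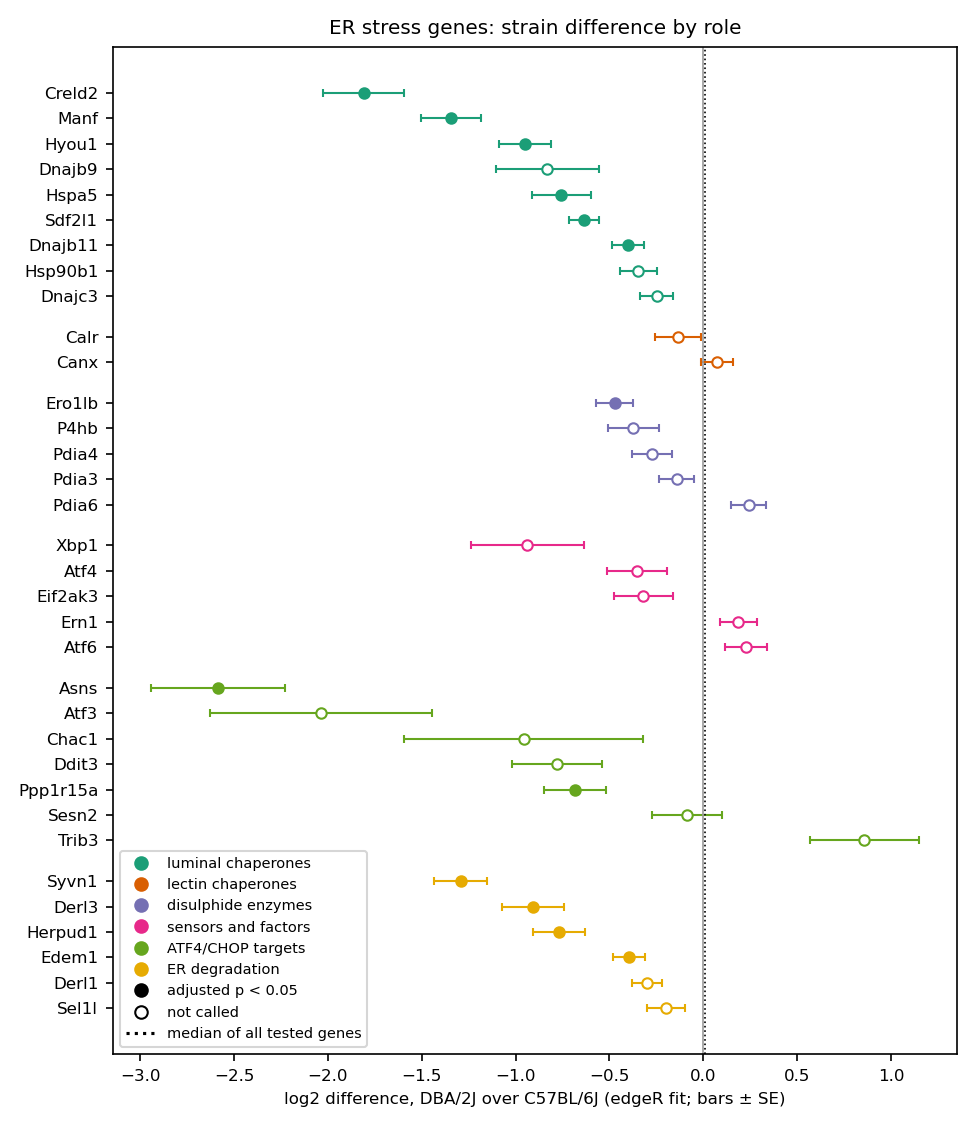
Log2 difference between strains (DBA/2J over C57BL/6J, edgeR fit, bars ± SE, 2 libraries per strain) for the 34 members by role; filled points are called and the dotted line is the median of all tested genes at 0.01. Filled points lie at -0.39 or below, and the luminal chaperones and degradation genes all lie left of 0.

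The luminal chaperones and their co-factors were called lower in 6 of 9 cases and higher in 0, with a median log2 difference of -0.76. Both DBA/2J libraries were below both C57BL/6J libraries in 9 of 9. Creld2, a secreted and ER-resident protein induced by ER stress, had 35.4 and 53.7 CPM in DBA/2J and 141 and 171 in C57BL/6J. Its strains lie far apart, at 44.5 CPM ± 13.0 (SD, n = 2) against 156 CPM ± 21.7 (SD, n = 2), a log2 difference of -1.81 ± 0.22 (SE) or 3.50-fold (edgeR adjusted p = 0.00603). Manf, an ER stress-induced neurotrophic factor that binds BiP (chr9:106838312-106891979, GRCm38, reverse strand), stood at 56.6 and 77.4 CPM in DBA/2J and 162 and 179 CPM in C57BL/6J. It was 2.54-fold lower (-1.35 ± 0.16, edgeR adjusted p = 0.00603). Its annotated exons share bases with Rbm15b, Vprbp and 4930524O07Rik, and how reads there were assigned is not given in the sources used here.

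Hspa5 encodes BiP, the main HSP70 chaperone of the ER, from which the membrane sensors are released (chr2:34771970-34777547, forward strand). Its CPM were 761 and 939.5 in DBA/2J and 1329 and 1545 in C57BL/6J. The groups did not overlap, and each C57BL/6J library exceeded each DBA/2J library by more than the gap within either strain (-0.76 ± 0.16, 1.69-fold, edgeR adjusted p = 0.0280). Hyou1, a large HSP70-like protein that exchanges nucleotide on BiP, had 212 and 269 CPM against 441 and 488 CPM (-0.95 ± 0.14, 1.93-fold, edgeR adjusted p = 0.0107). Sdf2l1, which acts with the co-chaperone Dnajb11, was close within each strain, at 47.7 and 48.4 CPM in DBA/2J and 72.5 and 76.8 CPM in C57BL/6J (-0.64 ± 0.08, edgeR adjusted p = 0.00694). Dnajb11 itself, a J-domain co-chaperone of BiP, differed less, with 122 and 119.7 CPM against 167 and 153 CPM (-0.40 ± 0.08, edgeR adjusted p = 0.0282).

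The 3 luminal members not called also had lower values in DBA/2J. Hsp90b1, the ER HSP90 paralogue GRP94, had 590.4 and 599 CPM against 774 and 739 CPM (-0.35 ± 0.10, edgeR adjusted p = 0.0622). Dnajb9, a J-domain protein that returns BiP to IRE1, varied most within strains, from 50.6 to 81.4 CPM in DBA/2J and from 94.5 to 140.4 CPM in C57BL/6J (-0.83 ± 0.27, edgeR adjusted p = 0.0912). Dnajc3, which binds unfolded protein as a BiP co-chaperone, stood at -0.25 ± 0.09 (edgeR adjusted p = 0.111). DBA/2J replicate 1 was the lowest library and C57BL/6J replicate 2 the highest for Creld2, Manf, Hyou1, Hspa5, Dnajb9 and Sdf2l1 alike.

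**Figure D3:**
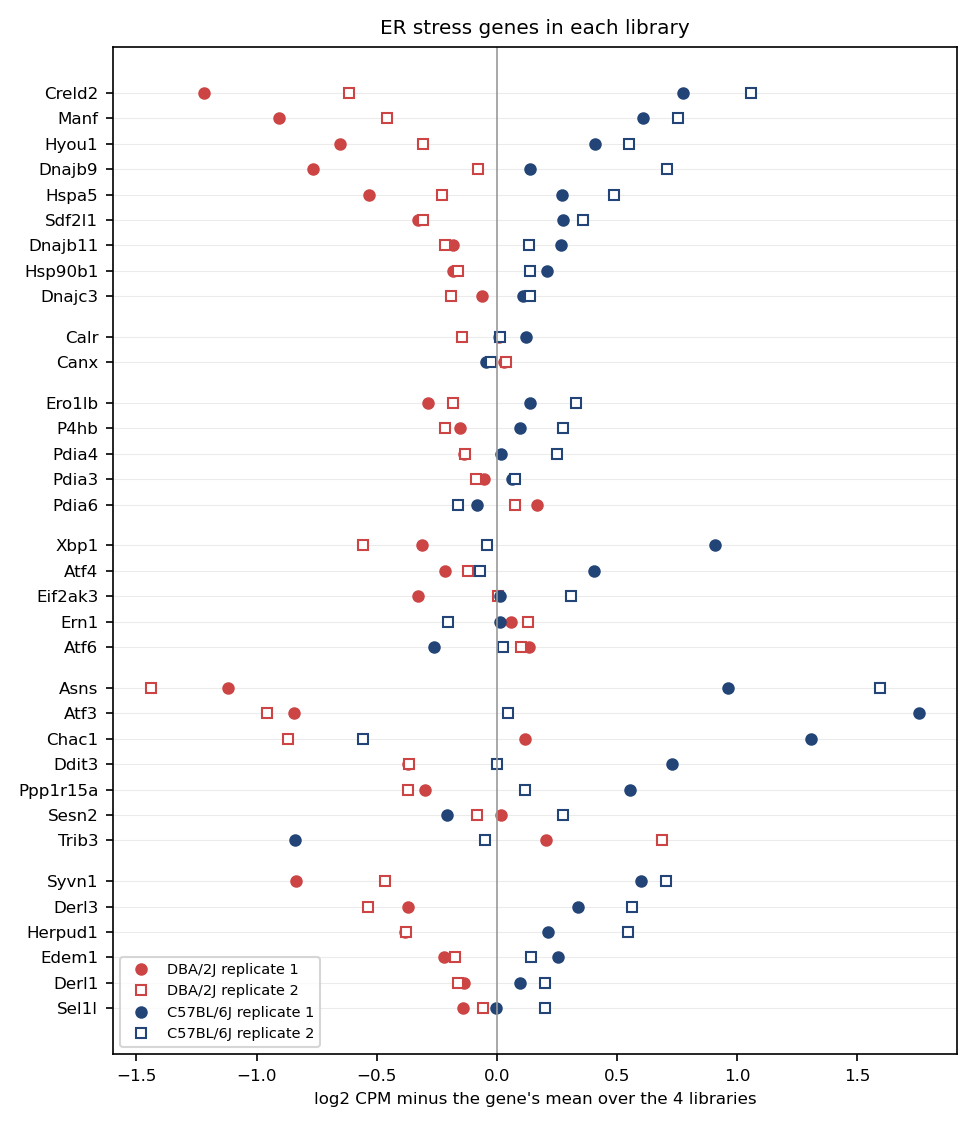
Log2 CPM of each member in each library, minus the gene's mean over the 4 libraries (circles replicate 1, squares replicate 2; red DBA/2J, blue C57BL/6J). Red and blue are apart for the luminal chaperones and degradation genes, whereas C57BL/6J replicate 1 lies far to the right for Xbp1, Atf3, Chac1 and Ddit3.

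Lectin chaperones, which hold glycoproteins until they fold, were not called (0 of 2 by edgeR, 0 at an unadjusted p below 0.05, 0 by DESeq2). Calr had 1050.3 and 944 CPM in DBA/2J and 1135 and 1053 CPM in C57BL/6J (-0.13 ± 0.12, edgeR adjusted p = 0.480). Canx, the membrane-bound partner, had 436 and 439 CPM against 413 and 419 CPM (0.07 ± 0.09, edgeR adjusted p = 0.596). The windows of both hold an ERSE, as does that of Hspa5.

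Among 5 disulphide enzymes, 1 was called lower and 0 higher (3 lower and 1 higher at an unadjusted p below 0.05; 2 lower and 0 higher by DESeq2). It was Ero1lb, an oxidase that recharges protein disulphide isomerases, at 79.2 and 85.1 CPM in DBA/2J and 106 and 122 CPM in C57BL/6J (-0.47 ± 0.10, edgeR adjusted p = 0.0273). P4hb, the isomerase PDI, was the most abundant member per kilobase and stood at 1398 and 1339 CPM against 1665 and 1882 CPM (-0.37 ± 0.14, edgeR adjusted p = 0.113). Pdia4 and Pdia3 gave log2 differences of -0.27 ± 0.10 and -0.14 ± 0.09. Pdia6, an isomerase that also binds BiP, was the one with higher values in DBA/2J, 513 and 480.2 CPM against 432 and 408 CPM, without a call (0.24 ± 0.09, edgeR adjusted p = 0.130).

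ER-associated degradation genes were called lower in 4 of 6 cases and higher in 0, with a median log2 difference of -0.58, and in 6 of 6 both DBA/2J libraries were below both C57BL/6J libraries. Syvn1, the ubiquitin ligase HRD1 at the centre of the retrotranslocation complex (chr19:6046576-6053712, forward strand), had 149 and 193 CPM in DBA/2J and 404 and 435 CPM in C57BL/6J. It was 2.45-fold lower in DBA/2J (-1.29 ± 0.14, edgeR adjusted p = 0.00447), the lowest adjusted p among the members. Its exons share bases with Mrpl49 on the other strand, and without strand information such reads cannot be told apart. Herpud1, which recruits the ligase complex, had 549.7 and 551 CPM against 829.9 and 1045 CPM (-0.77 ± 0.14, edgeR adjusted p = 0.0191); the DBA/2J pair almost coincided while the C57BL/6J pair differed. Derl3, a member of the derlin channel family, was low in liver, at 4.85 and 4.32 CPM against 7.92 and 9.26 CPM (-0.91 ± 0.16, edgeR adjusted p = 0.0194). Edem1, a lectin that delivers misfolded glycoproteins, had 212 and 219 CPM against 294 and 272 CPM (-0.39 ± 0.09, edgeR adjusted p = 0.0315). Not called were Derl1 (-0.30 ± 0.08, edgeR adjusted p = 0.0547) and Sel1l, the scaffold of the Syvn1 ligase (-0.20 ± 0.10, edgeR adjusted p = 0.221). The ligase and its scaffold thus had different sizes of difference; their difference from each other was not tested.

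Of the 5 sensors and their transcription factors, 0 were called in either direction by edgeR (1 lower at an unadjusted p below 0.05; 0 by DESeq2). Xbp1, whose spliced mRNA encodes the factor downstream of IRE1, had 230.1 and 194 CPM in DBA/2J and 535 and 277 CPM in C57BL/6J (-0.94 ± 0.30, edgeR adjusted p = 0.0854). The gap within the C57BL/6J pair was wider than the gap between the strain means. Without C57BL/6J replicate 1 it was -0.39 (edgeR adjusted p = 0.0443) and without C57BL/6J replicate 2 it was -1.34 (edgeR adjusted p = 1.61e-04). Atf4 had 91.7 and 98.0 CPM against 141 and 102 CPM (-0.35 ± 0.16, edgeR adjusted p = 0.179), again with replicate 1 the higher of the C57BL/6J pair.

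The membrane sensors themselves were not called. Eif2ak3, encoding PERK, had 20.8 and 26.3 CPM in DBA/2J and 26.4 and 32.4 CPM in C57BL/6J (-0.32 ± 0.16, edgeR adjusted p = 0.211). Ern1, encoding IRE1, and Atf6 had higher values in DBA/2J, with log2 differences of 0.19 ± 0.10 and 0.23 ± 0.11 (edgeR adjusted p = 0.239 and 0.211). Atf6 had 114 and 111 CPM against 86.4 and 105 CPM; without C57BL/6J replicate 2 it was called higher (0.38, edgeR adjusted p = 0.0148).

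Targets of ATF4 and CHOP were mixed: 2 of 7 were called lower and 0 higher by edgeR (4 lower and 1 higher at an unadjusted p below 0.05, and likewise 4 and 1 by DESeq2), with a median log2 difference of -0.78. Asns, asparagine synthetase, a classic ATF4 target (chr6:7675169-7693254, reverse strand), had the largest fold difference of the 34. It had 25 and 23 counts in DBA/2J and 107 and 170 in C57BL/6J, which is 0.518 and 0.416 CPM against 2.20 and 3.41 CPM. The groups were well apart although the gene was the lowest of the members per kilobase (-2.59 ± 0.36, 6.01-fold, edgeR adjusted p = 0.00925). Ppp1r15a encodes GADD34, which directs the phosphatase that reverses eIF2 phosphorylation. It had 12.5 and 11.9 CPM against 22.6 and 16.7 CPM (-0.69 ± 0.17, edgeR adjusted p = 0.0419). Exons of Ppp1r15a share bases with Tulp2 on the other strand.

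Trib3, a pseudokinase gene induced by ATF4 and CHOP, ran the other way, with 16.9 and 23.5 CPM in DBA/2J and 8.17 and 14.1 CPM in C57BL/6J (0.86 ± 0.29, edgeR adjusted p = 0.0972; called higher by DESeq2, adjusted p = 0.0170). Atf3, a stress-induced transcription factor gene, had 48 and 51 counts in DBA/2J and 294 and 92 in C57BL/6J (-2.04 ± 0.59, edgeR adjusted p = 0.0671). Ddit3, which encodes CHOP, had 10.7 and 10.8 CPM against 23.0 and 13.9 CPM (-0.78 ± 0.24, edgeR adjusted p = 0.0782); its exons share bases with Mars on the other strand. Chac1, a glutathione-degrading enzyme gene, had 188 and 109 counts against 434 and 122 (-0.96 ± 0.64, edgeR adjusted p = 0.335). Without C57BL/6J replicate 1 its log2 difference was 0.24. Sesn2, a stress-induced regulator of growth signalling, differed little (-0.09 ± 0.19, edgeR adjusted p = 0.781).

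In 4 of the 7 ATF4 and CHOP targets, Atf3, Chac1, Ddit3 and Ppp1r15a, C57BL/6J replicate 1 exceeded replicate 2 by more than 1.3-fold, as it did for Xbp1 and Atf4. It did so for 0 of the 9 luminal chaperones and 0 of the 6 degradation genes. Over all members it did so in 6 of 34, near the 2697 of 15647 over all tested genes. Replicate 1 exceeded replicate 2 of C57BL/6J by that ratio also in 14 of 14 acute phase genes, 7 of 11 immediate early genes, 6 of 8 stellate and 5 of 6 cholangiocyte markers; the part of these in the stress gene values was not tested. With C57BL/6J replicate 1 left out, log2 differences were -0.95 for Atf3, 0.24 for Chac1, -0.37 for Ddit3 and -0.46 for Ppp1r15a. With C57BL/6J replicate 2 left out they were -2.66, -1.62, -1.10 and -0.89. In the same order of fits, Asns stood at -2.87 and -2.24, Sesn2 at -0.31 and 0.17, and Trib3 at 0.51 and 1.31.

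Levels were compared between members per kilobase of annotated exon. In C57BL/6J the highest were P4hb (620.0 CPM per kb), Herpud1 (402), Calr (379.9) and Hspa5 (339.8), and in DBA/2J P4hb (478), Calr (346), Herpud1 (236) and Hspa5 (201). Creld2 ranked 9 of 34 in C57BL/6J and 19 in DBA/2J, the largest change of rank. Asns (1.02 CPM per kb in C57BL/6J and 0.171 in DBA/2J) and Atf3 (1.83 and 0.445) were the lowest in both strains. The called genes thus ran from among the most abundant to the least abundant.

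Chaperones, degradation genes and ATF4 targets were then set against genes of the same pathway that are not members. Over all tested genes, 8.87% were called lower and 9.29% higher, 18.2% in all. The lower calls were 17.4% of other ER folding factors, 47.1% of translocon and signal peptidase genes and 18.2% of other degradation genes. Of 23 tested other ER folding factors, 4 were lower and 2 higher, with a median log2 difference of -0.19; Fkbp2, a peptidyl-prolyl isomerase of the ER, was at -0.91 ± 0.10, Qsox1, a sulphydryl oxidase, at -0.68 ± 0.14, and Dnajc10, a disulphide reductase, at 0.60 ± 0.09. Translocon and signal peptidase genes, which thread and trim entering proteins, were lower in 8 of 17 cases and higher in 0 (0 at an unadjusted p below 0.05 and 0 by DESeq2; median -0.30). Among them were Ssr2 (-0.56 ± 0.08), Tram1 (-0.60 ± 0.09) and Sec61b (-0.56 ± 0.08). Among 22 other degradation genes, 4 were lower and 0 higher (2 higher at an unadjusted p below 0.05, 0 by DESeq2; median -0.05), among them the ubiquitin-conjugating enzyme genes Ube2j2 (-0.60 ± 0.11) and Ube2g2 (-0.52 ± 0.12) and Aup1 (-0.36 ± 0.08).

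Other ATF4 targets, 33 tested, had calls in both directions, 3 lower and 2 higher, with a median log2 difference of -0.02. The lower calls were 9.09% of this list and 10.5% of the sensors and eIF2 regulators below, near the 8.87% of all tested genes. Wars, tryptophanyl-tRNA synthetase, stood at -0.74 ± 0.09, and Pck2, the mitochondrial PEP carboxykinase, at -1.44 ± 0.20. Slc3a2, the heavy chain of amino acid exchangers, was higher by 0.54 ± 0.10. Of 19 other stress sensors and eIF2 regulators, 2 were lower and 3 higher: Eif2b4 (-0.64 ± 0.10) and Eif2b5 (-0.37 ± 0.08), subunits of the exchange factor eIF2B, were lower, and Gcn1l1, which activates the kinase GCN2, had the lowest adjusted p of the higher ones, at 0.74 ± 0.11.

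Oligosaccharyltransferase genes were called in 2 of 11 cases, Tusc3 (0.92 ± 0.13) and Dad1 (-0.37 ± 0.08). That is 18.2%, the share also called over all tested genes (18.2%). ER to Golgi transport genes were lower in 1 of 20 (5%, against 8.87% of all tested genes), the cargo receptor gene Tmed2 (-1.10 ± 0.09). They were higher in 0 (1 at an unadjusted p below 0.05, 0 by DESeq2). Substrates of IRE1-dependent mRNA decay were called in 0 of 6 (3 higher and 1 lower at an unadjusted p below 0.05, 1 and 1 by DESeq2), with a median of 0.27. The calls in these lists have edgeR adjusted p values from 0.00211 for Tmed2 upwards. With a DBA/2J library left out most calls were lost. Over all libraries left out in turn, values stayed close for Tmed2 (-1.19 to -1.04) and Ssr2 (-0.61 to -0.53). They moved more for others, such as Qsox1 (-0.86 to -0.54) and Ube2g2 (-0.67 to -0.37). Without DBA/2J replicate 1, 0 genes of the 8 lists were called, and without replicate 2, 1 ATF4 target and 1 transport gene were. Over the libraries left out in turn, log2 differences ran from -1.02 to -0.83 for Fkbp2 and from 0.54 to 0.64 for Dnajc10. They ran from -1.55 to -1.33 for Pck2 and from 0.42 to 0.63 for Slc3a2. Cytosolic heat shock genes, a separate chaperone system, were lower in 11 of 12 cases with a median log2 difference of -0.88, below that of the luminal ER chaperones, and immediate early genes, which respond to handling, in 4 of 11; whether either bears on the ER genes was not tested.

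**Figure D4:**
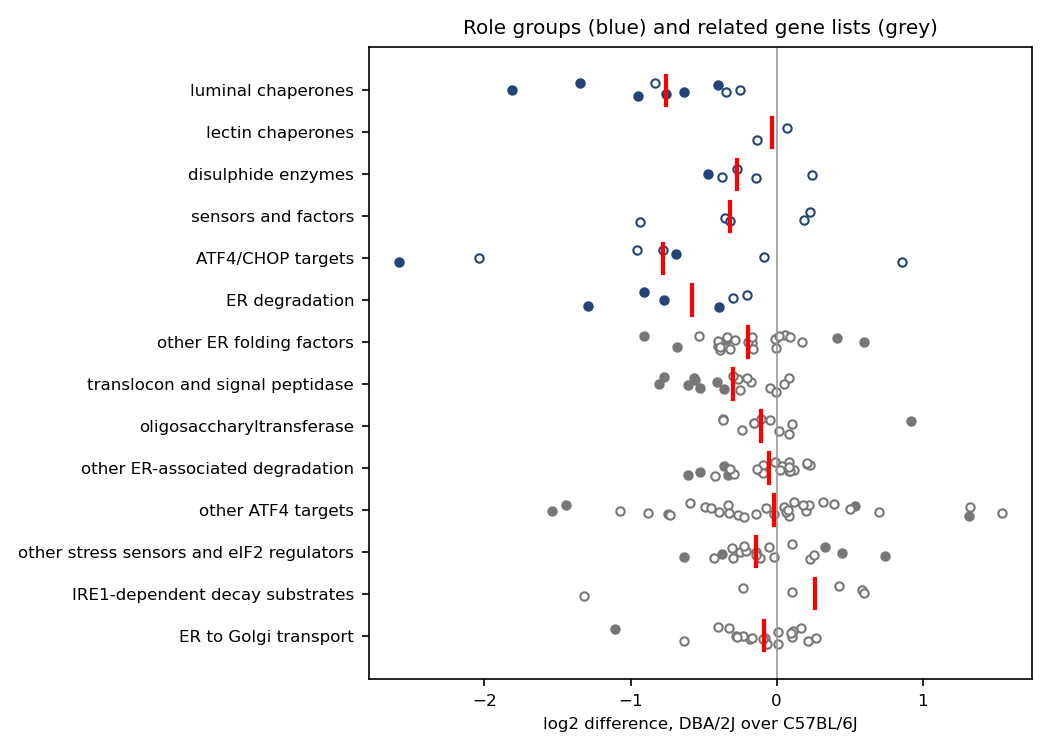
Log2 difference between strains (DBA/2J over C57BL/6J) of each gene in the role groups (blue) and in related lists (grey), with filled points called at an adjusted p below 0.05 and red bars at the median. The medians of luminal chaperones (-0.76), ATF4 and CHOP targets (-0.78) and ER degradation members (-0.58) lie left of the medians of the related lists, which run from -0.30 to 0.27; the cytosolic heat shock list (median -0.88) is not drawn.

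The calls rested unequally on the libraries. Creld2, Manf and Syvn1 were called with any single library left out, with log2 differences from -2.15 to -1.55, from -1.59 to -1.15 and from -1.49 to -1.13 and edgeR adjusted p values up to 0.0405, 0.0446 and 0.0499. The other 10 calls were lost without DBA/2J replicate 1 and also without DBA/2J replicate 2, which left 3 genes lower in each case (2 luminal chaperones, 1 degradation gene, 0 ATF4 targets). Their values stayed close to those with all libraries for Sdf2l1 (-0.64 and -0.65, against -0.64) and Herpud1 (-0.78 and -0.77, against -0.77), whose DBA/2J pairs were close. They moved more for Hspa5 (-0.63 and -0.92, against -0.76), Hyou1 (-0.80 and -1.14, against -0.95) and Asns (-2.76 and -2.43, against -2.59). The member median was -0.43 and -0.46, against -0.40. Over all genes the lower calls then numbered 106 and 114, against 1388 with all libraries; the lone DBA/2J library is then assumed to vary as the other strain does. With C57BL/6J replicate 1 left out, the member median was -0.38, and with C57BL/6J replicate 2 left out it was -0.46. Over all genes the median was 0.02 in each case. Atf6 and Trib3 stood at 0.38 and 1.31 with C57BL/6J replicate 2 left out. The sign of each of the 13 called genes was the same with every library left out. This adds little, since in each of them both DBA/2J libraries lay below both C57BL/6J libraries.

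**Figure D5:**
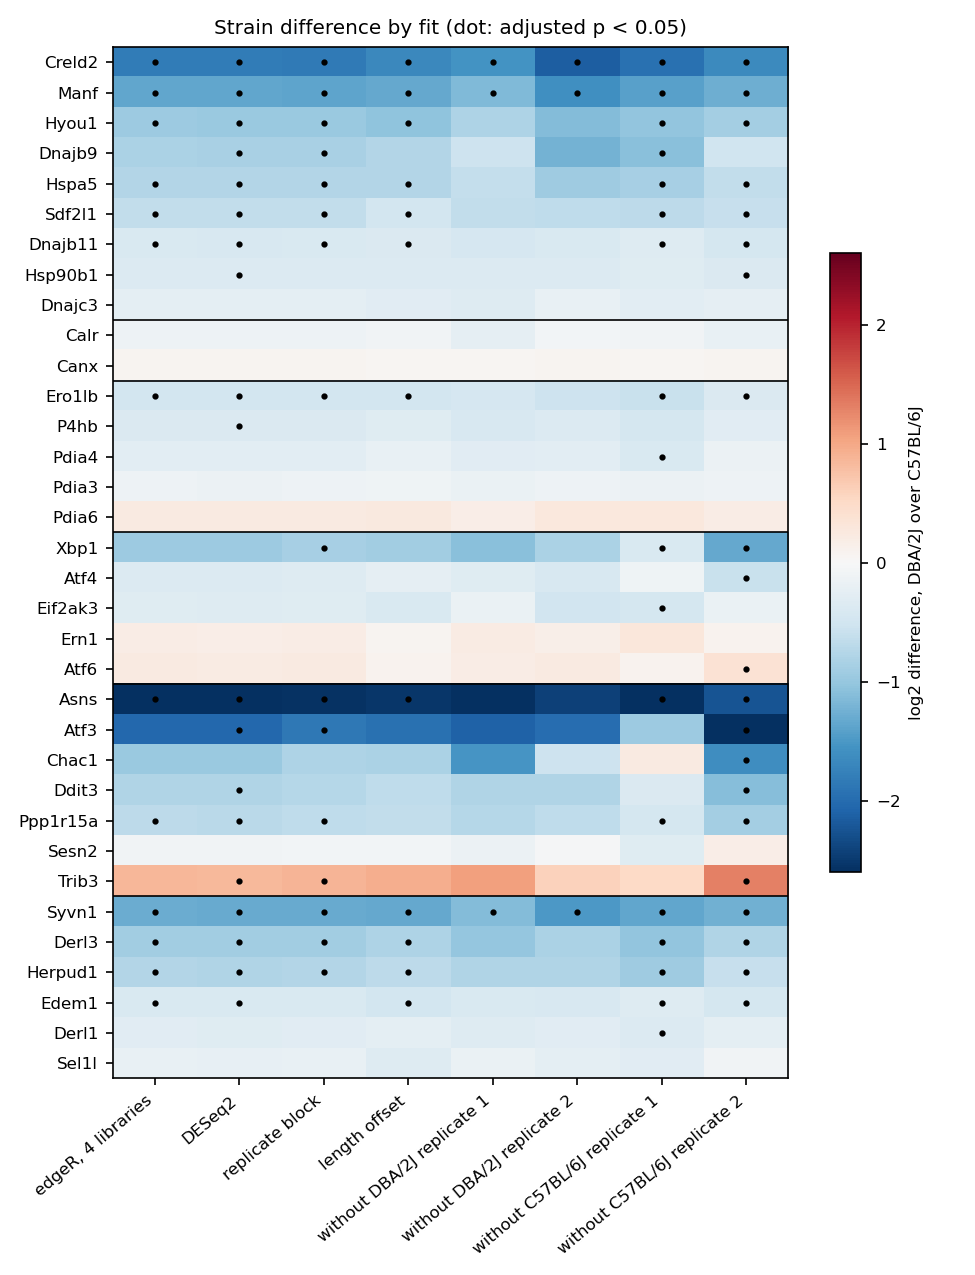
Log2 difference (colour, DBA/2J over C57BL/6J) of each member under the edgeR fit to all libraries, DESeq2, a fit with the replicate number as a block, a fit with an exon length offset, and edgeR without each library; a dot marks an adjusted p below 0.05. The rows of Creld2, Manf and Syvn1 carry a dot in every column shown, and the columns without a DBA/2J library hold 3 dots each.

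Among the 12 members with an ERSE or ERSE-II, 7 were called lower and 0 higher by edgeR, with a median log2 difference of -0.44. The strain differences of genes that hold the element spread widely, from -1.81 for Creld2 and -1.29 for Syvn1 to -0.13 for Calr, 0.07 for Canx and 0.24 for Pdia6. Of the 19 member windows whose gene was not called, 5 held ERSE, and of the 11 whose gene was called lower, 7 held ERSE or ERSE-II. The 4 ATF4 and CHOP targets with a CARE had values on both sides of 0, Asns at -2.59, Atf3 at -2.04, Chac1 at -0.96 and Trib3 at 0.86 on the log2 scale. Annotated transcripts of other loci at least 95% identical over 100 bases were found for Derl1, Dnajb9 and Ero1lb, and the counted copies of Dnajb9 and Ero1lb held at most 1 count in any library.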

How the data were processed

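Liver poly(A) RNA was sequenced as single-end reads of 100 bases per the labels' protocols. The authors deposited raw counts, whole numbers for each symbol. Their tool was featureCounts 2.0.1 on Ensembl release 88 exons (GRCm38), per the file headers; the submitters' processing notes name STAR 2.4.0g1 and featureCounts 1.5.2. The header gives no strand option. Besides the overlaps named above, exons of Hsp90b1, Dnajb9, Pdia3, Pdia4, Pdia6 and Eif2ak3 share bases with other annotated genes. DBA/2J reads were aligned to a C57BL/6J-derived reference, and loss of reads that differ from it was not tested. The exon length per symbol, a further column of the deposited files (in bases, all annotated exons), was used for levels per kilobase.

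The strain label gave the groups, the titles the replicate numbers. The labels name no batches, so a difference in handling between the strains, if there was any, cannot be told apart from strain. Counts were tested across all genes with edgeR 4.0.16 (glmQLFit with legacy=FALSE, glmQLFTest, TMM, filterByExpr with a minimum count of 10) under R 4.3.3, strain as the sole term, with Benjamini-Hochberg adjustment over 15647 genes; the fit was tested on simulated data. Standard errors derive from the F statistic. DESeq2 1.42.0 and the other alternatives are in the closing section. The smooth trend in the length offset was a lowess curve with a span of 0.5. Copies were sought with blastn in GENCODE release 21 transcripts. With 2 libraries per strain, p-values measure the spread between these libraries only. The members and gene lists were chosen with earlier results of these data known. All members are named, and of each related list up to 3 called genes with the lowest adjusted p.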

Additional observations from a re-analysis of the deposited data

How the results depend on the processing

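The sign of the log2 difference was kept by 32 of 34 genes under all 12 alternatives. Chac1 reversed to 0.24 without C57BL/6J replicate 1 and Sesn2 to 0.17 without C57BL/6J replicate 2, neither called with all libraries. Leaving out each library gave -1.62 to 0.24 for Chac1 and -0.31 to 0.17 for Sesn2. These 2 were the members whose libraries overlapped between strains. Where libraries do not overlap, leaving 1 out can hardly reverse a sign, so the kept signs add little to that separation. Within edgeR, scaling by relative log expression (RLE) in place of TMM changed no call of the 34. Nor did the older quasi-likelihood form. When single libraries were left out, the members called lower ranged from 3 to 19 (13 with all) and those called higher from 0 to 2 (0 with all). By role the lower calls then ranged from 2 to 7 for luminal chaperones, from 0 to 2 for disulphide enzymes, from 0 to 2 for sensors, from 0 to 5 for ATF4 and CHOP targets and from 1 to 5 for degradation genes. Over all genes they ranged from 106 to 2455 lower and from 186 to 2450 higher.

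Without a filter on low counts, 8 members were lower, with 0 disulphide enzymes and 1 ATF4 and CHOP target (lost were Dnajb11, Edem1, Ero1lb, Hspa5 and Ppp1r15a), and over all genes 707 were lower and 809 higher, where the reported fit gave 1388 and 1454; more genes were then adjusted over. Scaling by library totals alone left 10 members lower (0 disulphide enzymes, 1 ATF4 and CHOP target; lost were Edem1, Ero1lb and Ppp1r15a) and gave 1024 lower and 1924 higher over all genes. DESeq2 gave 2 disulphide enzymes and 4 ATF4 and CHOP targets lower and 1 member, Trib3, higher. An offset removing the trend with exon length gave 12 lower, with 1 ATF4 and CHOP target (lost was Ppp1r15a). The replicate numbers pair no samples by the labels, and deviations of same-numbered libraries correlated at r = -0.064 across 15647 genes. A fit with the replicate block gave 15 members lower, 1 sensor (Xbp1) among them, and 1 higher (Trib3), gaining Atf3, Dnajb9 and Xbp1 and losing Edem1; over all genes 1175 were lower. With the length offset and the replicate block together, 14 were lower, again with 1 sensor, and 1 higher; Derl3 and Dnajb11 were lost. The causes of these changes were not tested. Asns and Atf3, with 23 to 51 counts in DBA/2J libraries, carry the most counting error.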

Other observations

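An ERSE or ERSE-II also stood in 39 windows of 37 genes outside the 34, of which 16 were tested. Of these 16, 2 were called lower and 2 higher by edgeR, where 8.87% and 9.29% of all tested genes were. The median log2 difference of the 16 was -0.11 (DBA/2J over C57BL/6J). This list was drawn up after the members' values were seen and got no test. Lower were Lrif1 (-0.55 ± 0.13, SE, edgeR adjusted p = 0.0425), which acts in chromatin silencing, and Xlr3a (-1.70 ± 0.29, edgeR adjusted p = 0.0158), an X-linked gene whose reads may be shared with Xlr3b and Xlr3c, so its value is uncertain. Higher were Lgalsl (1.15 ± 0.15, edgeR adjusted p = 0.00873), a galectin-like gene, and Tdrd9 (edgeR adjusted p = 0.0316), a germline helicase gene near the floor, with at most 0.415 CPM in any library, so that no fold is given. Genes of ER glycosylation with these elements were Alg12, a mannosyltransferase (-0.49 ± 0.13, edgeR adjusted p = 0.0523), and Krtcap2, an oligosaccharyltransferase subunit (-0.37 ± 0.10, edgeR adjusted p = 0.0560), neither called.

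In 14 of the 34 members, replicate 2 exceeded replicate 1 in both strains, a larger share than the 3932 of 15647 over all tested genes. These members included Hspa5, Hyou1, Dnajb9, Creld2, Manf and Syvn1. Over these 34 genes, the deviations of the replicate 1 libraries from their strain means correlated at r = 0.593, whereas over all tested genes r was -0.064. Genes are not independent replicates and each strain gave 1 pair, so this is a description of these 4 libraries. The labels do not say what the replicate numbers share.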
